A study of Mus musculus with 24 samples.

Results

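The last step of the jejunal villus was examined by comparing the tip zone, V6, with the zone just below it, V5 (middle-tip). Both zones came from the same 4 mice, so the 8 libraries of the 24 in the series form 4 pairs, V5 and V6 of mouse 1 to mouse 4. The mice were male C57BL/6 animals aged 10 weeks on regular chow, with no genetic change or treatment in any group. The zones were set by cell sorting on surface protein levels, and position on the villus was inferred from these levels. Epithelial cells were released from the jejunum with EDTA and sorted by FACS with antibodies to CD73 and CD26, surface proteins whose levels vary along the villus, and each sorted zone was sequenced in bulk by mcSCRB-seq, a method that reads the 3′ end of polyadenylated RNA and counts each molecule once by a unique molecular identifier (UMI). Gene levels are stated in CPM, a gene's UMIs relative to the TMM-scaled total of its library. All 17811 genes of the table were considered, and 9328 had enough UMIs to be tested.

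Enterocytes are born in the crypt, climb the villus for a few days and are shed from its tip. On the way they change their programme, from nutrient absorption in the middle of the villus to lipoprotein, purine and adhesion genes near the tip. Enteroendocrine cells, a rare secretory lineage scattered among them, make hormones such as secretin, cholecystokinin and neurotensin, and the hormone a cell makes is known to change as it moves upward.

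The genes called at this step were nearly all higher in V6. By edgeR's quasi-likelihood test with mouse as a block and Benjamini-Hochberg adjustment over all genes tested, which gives every adjusted p of a gene here, 137 genes were higher in V6 (1.47% of those tested) and 3 were lower (0.0322%) at an adjusted p under 0.05. Without the mouse block the counts were 25 and 0. The median log2 difference over all genes was 0.011, with 4824 genes above 0 (51.7%) and 4504 below (48.3%). TMM scaling centres these values, so they do not bear on a general shift. An unadjusted p under 0.05 gave 670 genes higher and 297 lower with TMM, against 434 and 559 with scaling by total UMI, where the median was -0.069 and the calls were 92 higher and 5 lower. All 4 V6 libraries lay above all 4 V5 libraries for 192 genes (2.06%) and below them for 92 (0.986%), while 1019 genes were higher in V6 in each of the 4 mice (10.9%) and 726 were lower (7.78%). Of the 30 genes called higher by a log2 of at least 2, 18 stood in the lists of enteroendocrine markers or serum protein genes (60.0%), while of all 137 only 21 did (15.3%). Some genes passed the filter on low counts through V6 alone, a selection that favours higher values in V6. They were 14 of the 137 called higher, and 11 of the 30, of which 5 stood in the 2 lists. Over all genes tested, 137 passed in this way, and 14 of these were called higher. The 116 genes called higher in neither list had a median log2 difference of 0.99 and ran from 0.43 to 4.45. The plot of every gene tested sets the called genes against the rest.

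**Figure D1:**
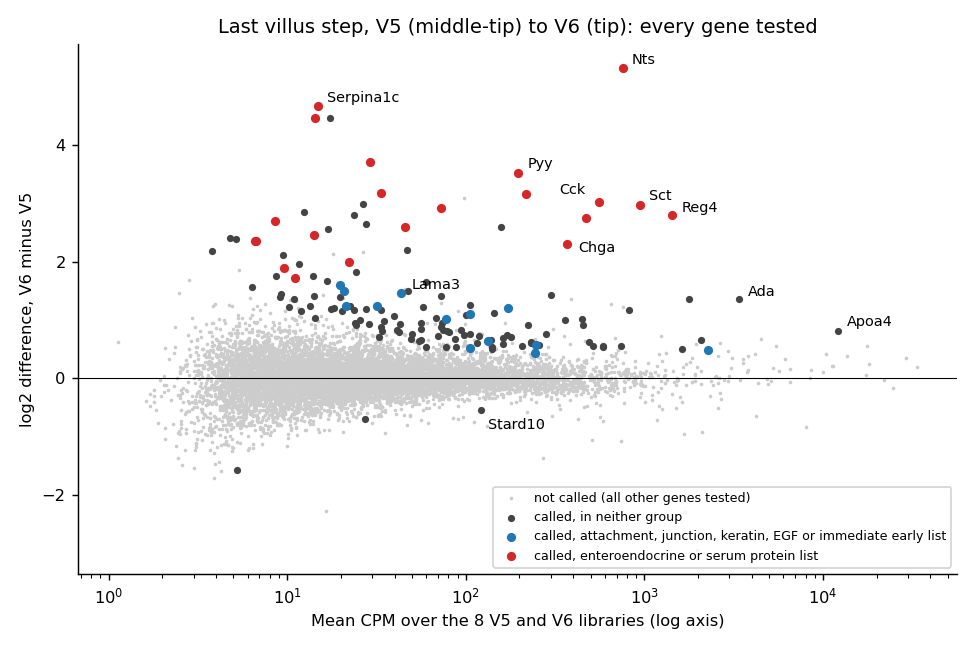
Each point is 1 of the 9328 genes tested, with its mean CPM over the 8 libraries on a log axis and its log2 difference, V6 minus V5, on the vertical axis; coloured and dark points passed an adjusted p of 0.05. The 137 genes called higher reach a log2 of 5.31 (Nts), and 3 genes are called lower.

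The gene of the sorting protein CD73, Nt5e, served as a check of the zone labels and is no finding. Its V5 values were 76.7, 22.1, 63.6 and 20.9 CPM in mice 1 to 4, and its V6 values were 446, 186, 296 and 148 CPM. All V6 libraries were above all V5 libraries (log2 2.59, SE 0.19, adjusted p 3.94e-10). CD26 is encoded by Dpp4, which was at 469 ± 60.9 CPM in V5 and 437 ± 64.2 in V6 (mean ± SD, n = 4 mice), and was not called (log2 -0.09, SE 0.14, adjusted p 0.896). In 1 mouse, mouse 4, Nt5e was lower in V5 than in V4, the zone below.

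The 8 libraries held 946842 UMIs (V5 of mouse 2) to 2139494 (V5 of mouse 1), and the mean total was 1592994 in V5 and 1612186 in V6. Enterocyte markers, used to check the label, summed to 75603 ± 17309.8 CPM in V5 and 89263 ± 14175 in V6, so both zones carried the labelled cell type. Goblet cell markers stood at 12752 and 12403 CPM, and tuft cell markers at 50.6 and 59.1. Stromal, endothelial and blood cell markers had mean sums of 32.7 and 21.7 CPM over 13 genes, with Col3a1 at 0 UMIs. By mouse, 1 to 4, they summed to 8.75, 93.7, 10.6 and 17.5 CPM in V5 and to 44.4, 15.1, 13.4 and 13.7 in V6. Leukocyte markers summed to 214 to 565 CPM in V5 and to 346 to 478 in V6, higher in V6 in 2 of 4 mice. Of the 18 leukocyte markers with counts, 6 were tested, 3 of them through V6 alone, and 0 were called. Of these 6, 5 had a log2 difference above 0, and their median was 0.92. Ptprc, the pan-leukocyte marker, was at 0.592 and 1.89 CPM, and Ccl5, a lymphocyte chemokine, at 69.3 ± 24.8 and 128 ± 10.7 CPM, with all V6 libraries above all V5 libraries (log2 0.94, SE 0.52, adjusted p 0.587). Paneth cell markers, which belong to the crypt base, summed to 35308 and 44937 CPM in V5 of mice 1 and 2 against 11002 and 5373 in mice 3 and 4, and to 4215 to 14628 in V6. The zones did not separate on them, and 0 of the 10 tested were called.

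Among called genes with at least 50 CPM on average over V5 and V6, Nts, Pyy, Afp and Cck had the 4 largest log2 differences. Their promoters are shown for that reason, as 300 bases from RefSeq on GRCm38.p6, from 250 before the transcription start to 50 after it, on the strand of the gene. Capitals mark motifs found by search on both strands for AP-1 (TGANTCA), CRE (TGACGTCA), an E-box read by NeuroD factors (CATCTG) and the TATA box (TATAAA).
Nts, chr10:102490369-102490668, minus strand: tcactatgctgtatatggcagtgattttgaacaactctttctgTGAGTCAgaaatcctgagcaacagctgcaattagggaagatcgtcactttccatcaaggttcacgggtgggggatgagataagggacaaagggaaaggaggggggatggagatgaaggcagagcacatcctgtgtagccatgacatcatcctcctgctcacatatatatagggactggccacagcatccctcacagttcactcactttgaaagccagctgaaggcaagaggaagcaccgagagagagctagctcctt
Pyy, chr11:102107783-102108082, minus strand: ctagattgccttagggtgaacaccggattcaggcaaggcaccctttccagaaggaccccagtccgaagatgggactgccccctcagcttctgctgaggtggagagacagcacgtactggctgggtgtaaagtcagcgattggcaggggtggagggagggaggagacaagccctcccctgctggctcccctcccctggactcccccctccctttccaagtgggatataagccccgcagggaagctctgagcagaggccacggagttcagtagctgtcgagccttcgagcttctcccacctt
Afp, chr5:90490464-90490763, plus strand: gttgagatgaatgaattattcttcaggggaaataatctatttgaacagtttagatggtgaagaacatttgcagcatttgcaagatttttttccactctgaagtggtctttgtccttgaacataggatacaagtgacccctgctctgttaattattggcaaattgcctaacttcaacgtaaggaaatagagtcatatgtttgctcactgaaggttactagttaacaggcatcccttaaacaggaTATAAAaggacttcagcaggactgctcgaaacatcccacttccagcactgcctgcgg
Cck, chr9:121495645-121495944, minus strand: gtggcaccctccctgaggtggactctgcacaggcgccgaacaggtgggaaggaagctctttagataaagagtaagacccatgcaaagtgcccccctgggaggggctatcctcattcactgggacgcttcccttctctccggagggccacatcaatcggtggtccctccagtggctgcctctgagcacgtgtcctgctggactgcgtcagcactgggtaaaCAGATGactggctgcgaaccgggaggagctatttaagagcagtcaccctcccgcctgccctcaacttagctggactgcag
In the Nts promoter the capitals are an AP-1 match that begins 207 bases before the start. In the Afp promoter they are a TATA box match that begins 7 bases before the annotated start, and in the Cck promoter the E-box on the opposite strand, 30 bases before it. The Pyy window held none of the 4, in either of its 2 annotated starts. Across all 32851 promoters of this length, AP-1 occurred in 7.81%, CRE in 1.79%, the E-box in 17.2% and TATAAA in 13.6%. The 4 windows therefore had no motif in common, and a match says only that these letters are present.

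Hormone transcripts were among the largest differences of the step. Of 22 enteroendocrine markers listed, 21 were in the table and 18 were tested. Of these 18, 14 rose, 0 fell and 4 were not called, where 1.47% of all genes tested were called higher. Their median log2 difference was 2.72 against 0.011 over all genes tested. The list was chosen with earlier results of these data known. Only Scg5 reached the test through its V6 counts alone. Without the mouse block 8 of the 14 were called. Summed over the list, V5 held 2078, 1126, 999 and 1228 CPM in mice 1 to 4, and V6 held 13280.5, 11169.6, 6949.8 and 6497 CPM. This was 0.128 ± 0.042% of UMIs in V5 and 0.847 ± 0.26% in V6, higher in 4 of 4 mice, with an exact two-sided sign-flip p of 0.125, the smallest that 4 pairs allow (0.304 after adjustment over 17 library measures). In bulk libraries, more cells of a type and more RNA per cell cannot be told apart.

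Nts, which encodes neurotensin, was the gene with the largest log2 difference of all called genes. It was at 70.6, 5.51, 15.3 and 64.1 CPM in V5 of mice 1 to 4 and at 1545, 1695, 1257 and 1400.3 CPM in V6. Every mouse showed the jump, and the V6 values lay close together while the V5 values spread widely (log2 5.31, SE 0.71, adjusted p 0.000622). In a paired fit of the 8 libraries alone, which called 145 genes higher, Nts was not called (log2 5.42, adjusted p 0.162). Pyy, the gene of peptide YY, was at 43.3, 49.6, 18.8 and 16.2 CPM in V5 and at 471, 640, 128 and 212 CPM in V6. Its groups did not overlap, and mice 3 and 4 were the lower in both zones (log2 3.51, SE 0.56, adjusted p 0.00278). Without mouse 4 its adjusted p was 0.0669, and without the mouse block 0.0689. Cck, the gene of cholecystokinin, was at 97.3, 131, 38.3 and 253 CPM in V5 and at 1058, 1082, 923 and 861 CPM in V6. The pairs converged on a similar V6 level from different V5 levels (log2 3.03, SE 0.64, adjusted p 0.0227). Sct, the gene of secretin on chromosome 7 (141278330 to 141279133), was at 231, 155, 192 and 309.6 CPM in V5 and at 2023, 1823, 1328 and 1463 CPM in V6. It was called in each of the 15 alternative analyses (log2 2.96, SE 0.39, adjusted p 0.000544), which Cck was not. Cck lost its call without mouse 1, 2 or 3 (adjusted p 0.258, 0.187 and 0.101) and without the mouse block (0.0689). In the paired fit of the 8 libraries alone Cck was not called either (0.225).

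Genes of hormone storage and processing were among the 14 called members. Chga, a granin of secretory granules on chromosome 12 (102554969 to 102565028), was at 204, 126, 71.8 and 96.5 CPM in V5 and at 1105, 602, 399.6 and 360.3 CPM in V6. The order of the mice was nearly the same in both zones, with mouse 1 highest (log2 2.29, SE 0.33, adjusted p 0.00104). Its relative Chgb went from 128 ± 72.6 to 817 ± 409 CPM (mean ± SD, n = 4; log2 2.75, adjusted p 0.000798). Cpe and Pcsk1, enzymes that trim prohormones, had log2 differences of 2.59 and 2.45, at 79.5 and 23.8 CPM in V6. Scg5, a chaperone of a prohormone convertase, and Scgn, a calcium-binding protein of endocrine cells, had 2.69 and 2.35, from 2.07 and 1.92 CPM in V5. Tph1, the rate-limiting enzyme of serotonin synthesis outside the brain, was at 40.2, 14.3, 2.94 and 12.1 CPM in V5 and at 197, 158, 77.1 and 79.5 CPM in V6. Each V6 library exceeded each V5 library (log2 2.91, SE 0.23, adjusted p 4.33e-10). Tac1, which encodes substance P, went from 8.84 ± 7.15 to 35.8 ± 28.3 CPM, with V5 of mouse 1 above V6 of mice 3 and 4 (log2 2.00, adjusted p 0.000176). Without mouse 1 the adjusted p of Cpe was 0.0615, and without the mouse block that of Tac1 was 0.321.

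Reg4, a secreted lectin-like protein that marks enteroendocrine cells in mouse intestine, was the most abundant gene of the list. It was at 896, 362, 143 and 162 CPM in V5 and at 4455, 2799.8, 1496 and 1143 CPM in V6. Mice 1 and 2 were above mice 3 and 4 in both zones, and the rise was seen in all 4 (log2 2.79, SE 0.52, adjusted p 0.00962). Its call did not hold without mouse 1 (adjusted p 0.106), without mouse 2 (0.151) or without the mouse block (0.413). With Reg4 and Afp left out, the list still summed to 921 ± 164 CPM in V5 and 6615 ± 1716 CPM in V6.

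Not every hormone was higher at the tip. Gip, an incretin gene, was at 15.4, 91.5, 336 and 109 CPM in V5 and at 166, 138, 115 and 103 CPM in V6, higher in 2 of 4 mice and not called (log2 0.23, SE 0.72, adjusted p 0.959). Its means over the 6 zones were 1329, 1324, 567, 229.7, 138 and 131 CPM from V1 to V6, so the low level was already reached before this step. Gcg, the proglucagon gene, had 21.5 ± 10.2 CPM in V5 and 69.5 ± 65.1 in V6, higher in 4 of 4 mice with overlapping groups (log2 1.53, adjusted p 0.627). Ghrl, the ghrelin gene, had 22.3 ± 21.6 and 174 ± 113 CPM with no overlap, yet a large standard error (log2 3.09, SE 0.89, adjusted p 0.126). Sst, the somatostatin gene, rested on single libraries: V5 of mouse 3 had 52.4 CPM and V6 of mouse 2 had 52.1, while the other 6 were between 0.675 and 9.77 (log2 0.34, adjusted p 0.978). Neurog3, the endocrine progenitor factor, Pcsk1n and Fev had too few UMIs to be tested.

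**Figure D2:**
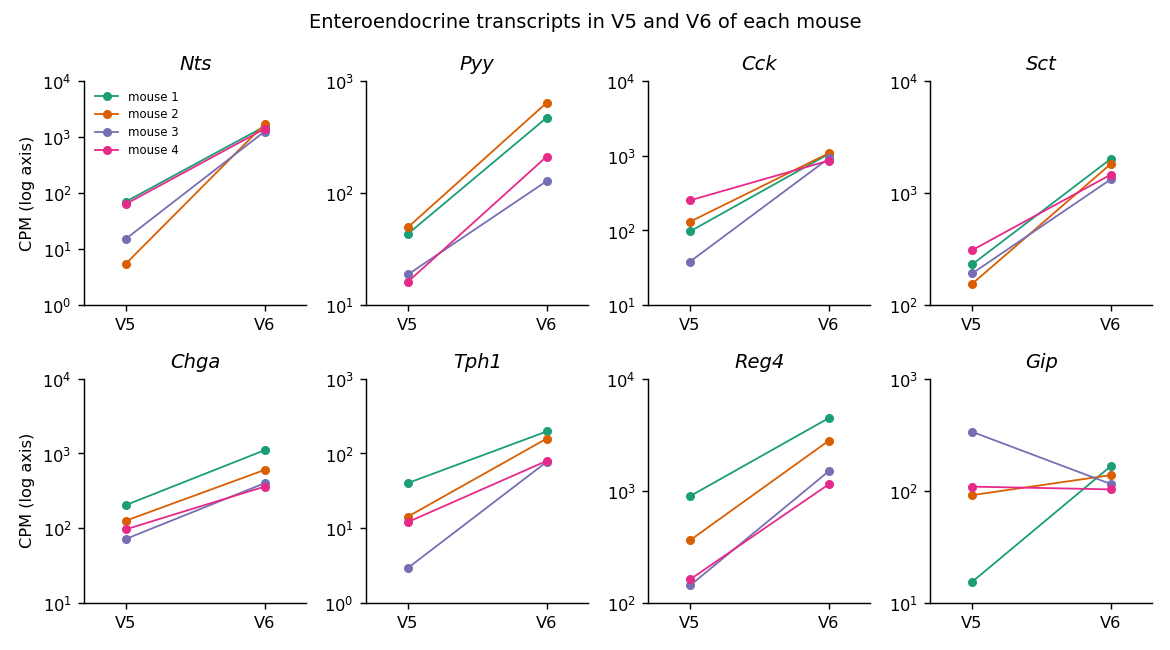
CPM of 8 enteroendocrine genes on log axes in V5 and V6, with 1 line per mouse (n = 4). The lines of Nts, Pyy, Cck, Sct, Chga, Tph1 and Reg4 rise in all 4 mice, while Gip rises in 2 and falls in 2.

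Called genes outside the list, chosen here after their values were seen, included more genes known from endocrine cells. Scg2, another granin, went from 5.79 ± 1.21 to 47.6 ± 23.3 CPM (log2 2.99, adjusted p 0.00012). Resp18, an endocrine granule protein, went from 7.43 ± 5.75 to 47.7 ± 20.7 CPM (log2 2.64, adjusted p 1.38e-07). Cartpt, a neuropeptide precursor, was at 1.57 ± 1.05 CPM in V5, from 4, 2, 0 and 3 UMIs, and at 33.0 ± 14.6 CPM in V6 (log2 4.45, adjusted p 1.24e-05). It reached the test through its V6 counts alone, a selection that favours higher values in V6, and DESeq2 did not call it (adjusted p 0.112). Ffar2, a receptor for short-chain fatty acids, had a log2 difference of 1.95 (adjusted p 0.000898). Gch1, the first enzyme in making the cofactor that tryptophan hydroxylase needs, had 1.08 (adjusted p 0.0108). Its adjusted p was 0.19 and 0.18 without mouse 2 or mouse 4, and 0.388 without the mouse block. Its mean had already climbed from 19.6 CPM in V1 to 73.1 in V4 and 65.1 in V5, before 136 in V6.

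Genes of proteins best known from blood plasma made up the second group of large differences. Of 23 such genes listed, 12 were in the table and 8 were tested. These 8 were called higher, where 1.47% of all genes tested were. However, 4 of the 8, Serpina1a, Serpina1c, Serpina1e and Ambp, passed the filter on low counts through V6 alone. That selection favours higher values in V6, so the count of 8 is given as a description. Without the mouse block 5 were called. Afp, the fetal serum albumin relative that stands in both lists, was at 124, 33.1, 21.2 and 9.44 CPM in V5 and at 419, 611, 341 and 174 CPM in V6. The rise was present in each mouse (log2 3.15, SE 0.46, adjusted p 0.00129), but its adjusted p was 0.0518 without mouse 3 and 0.131 without the mouse block. In the paired fit of the 8 libraries alone it was 0.225. Rbp4, the plasma carrier of retinol on chromosome 19 (38116629 to 38125281), was at 8.75, 2.21, 2.36 and 1.35 CPM in V5 and at 67.5, 89.0, 34.7 and 28.0 CPM in V6. It was called in all 14 alternatives in which it was tested (log2 3.70, SE 0.48, adjusted p 0.000189). Ttr, which carries thyroxine and binds Rbp4, went from 5.07 ± 3.47 to 17.2 ± 5.73 CPM (log2 1.72, adjusted p 0.00026), and Ambp from 6.26 ± 5.72 to 60.5 ± 37.2 CPM (log2 3.17, adjusted p 5.06e-07). The Serpina1 genes encode near-identical antitrypsins, so UMIs may be split among the copies and their separate values are uncertain. They ran from a log2 of 1.89 (Serpina1b) to 4.66 (Serpina1c). Summed over the list, the level went from 73.4 ± 64.1 CPM in V5 to 606 ± 265 in V6. Of these means, Afp alone made up 46.8 and 386 CPM, and it is also part of the endocrine sum. The serum and endocrine sums are therefore not independent. Whether the same cells hold endocrine and serum protein transcripts was not tested.

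Among epithelial genes, laminin chains and an integrin rose. Laminins are basement-membrane proteins that anchor epithelial cells through integrins. Lama3, an alpha chain, was at 26.3, 12.1, 39.5 and 15.5 CPM in V5 and at 79.7, 45.4, 87.0 and 43.0 CPM in V6. No V5 library reached a V6 library (log2 1.47, SE 0.20, adjusted p 1.24e-05). Lamb3, a beta chain on chromosome 1 (193207699 to 193343878), was at 26.3, 19.8, 21.8 and 8.77 CPM in V5 and at 59.6, 37.0, 44.6 and 37.8 CPM in V6 (log2 1.24, SE 0.23, adjusted p 0.00133). Itgb6, an integrin beta chain on chromosome 2 (60598292 to 60722643), was at 12.9 ± 7.68 CPM in V5 and at 29.8 ± 14.1 CPM in V6 (SD, n = 4). It was higher in V6 in 4 of 4 mice, while V6 of mouse 2 lay below V5 of mice 3 and 4 (log2 1.24, SE 0.25, adjusted p 0.00271). Of the 16 tested members of the attachment list, 4 rose, where 1.47% of all genes tested were called higher. The other called gene was Plec, which ties keratin to adhesion sites (log2 0.57, adjusted p 0.0224). None of the 16 fell, and their median was 0.42. Itgb4, an integrin chain of hemidesmosomes, was at 57.2 ± 7.87 and 79.6 ± 6.8 CPM and did not pass (log2 0.51, adjusted p 0.172). Without the mouse block 0 of the 4 were called, with adjusted p from 0.119 (Lamb3) to 0.557 (Itgb6). With mouse 1, 2, 3 or 4 left out, 2, 3, 3 and 2 were called. Lama3 kept its call each time, while Lamb3 lost it without mouse 4 (0.0669), Itgb6 without mouse 1 (0.11) and Plec without any 1 mouse (0.0565 to 0.141).

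Cell junctions and keratins differed by less. Over all genes tested, 51.7% had a log2 difference above 0 and 1.47% were called higher. Of 26 junction genes tested, 24 had a log2 difference above 0 and 3 rose, with a median of 0.37. The 3 were Dsp, the desmosomal plaque protein (log2 0.64, adjusted p 0.0383), Dsc2, a desmosomal cadherin (log2 0.53, adjusted p 0.0488), and Ctnna1, which links cadherins to actin (log2 0.43, adjusted p 0.0467). None of the 3 was called without the mouse block or without mouse 1 (adjusted p 0.362 to 0.436) or mouse 4 (0.086 to 0.197). Dsc2 and Ctnna1 kept their calls in 2 and 3 of 15 alternatives. Of 6 keratins, 2 rose. Krt8, on chromosome 15 (101996698 to 102004482), was at 2067, 1796, 2035 and 1674 CPM in V5 and at 3127, 2924, 2227 and 2327 CPM in V6 (log2 0.48, SE 0.12, adjusted p 0.0344). Krt7 went from 67.9 ± 23.7 to 144 ± 54.5 CPM (log2 1.10, adjusted p 0.0052). Neither was called without the mouse block, without mouse 2 (adjusted p 0.281 and 0.0624) or without mouse 4 (0.196 and 0.081), and Krt8 was not called without mouse 1 (0.241). The differentiation keratin Krt20 was at 3306 ± 771 and 4296 ± 957 CPM and did not pass (log2 0.39, adjusted p 0.285).

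Egfr, the receptor of epidermal growth factor, lies on chromosome 11 (16752203 to 16918158). It was the 1 member of its list of 10 that rose, where 1.47% of all genes tested were called higher. It was at 9.27, 5.51, 23.6 and 5.40 CPM in V5 and at 43.2, 23.5, 33.2 and 22.8 CPM in V6, with V5 of mouse 3 standing above the lowest V6 libraries (log2 1.5, SE 0.28, adjusted p 0.00123). Its call did not hold without mouse 1 (adjusted p 0.0759) or without the mouse block (0.153). Immediate early genes, which respond to stimulation within minutes and need no new protein for it, had a median log2 difference of 0.54 over 19 tested. Of these 19, 3 rose and none fell, while 13 had an unadjusted p under 0.05 in the direction of V6. Over all genes tested the shares were 1.47% called higher and 7.18% with such an unadjusted p. Ifrd1, a transcriptional co-regulator, was at 129, 45.2, 180.2 and 66.8 CPM in V5 and at 318, 155, 309 and 173 CPM in V6 (log2 1.21, SE 0.20, adjusted p 0.00129). Dusp1, a phosphatase of MAP kinases, was at 11.8, 12.1, 12.4 and 2.02 CPM in V5 and at 50.5, 37.0, 19.8 and 11.7 CPM in V6 (log2 1.59, SE 0.31, adjusted p 0.00243). Btg2, an antiproliferative gene, went from 49.6 ± 18 to 105 ± 59.5 CPM (log2 1.02, adjusted p 0.0243). None of the 3 was called without the mouse block (adjusted p 0.262 to 0.413), nor were Dusp1 and Btg2 without mouse 1 (0.125 and 0.138) or Ifrd1 and Btg2 without mouse 4 (0.0578 and 0.222). The AP-1 genes themselves were not called: Jun had a log2 difference of 0.95 (adjusted p 0.116), Fos of 0.40 (adjusted p 0.646) and Atf3 of 1.16 (adjusted p 0.103). Egr1 was just outside the threshold (log2 1.37, adjusted p 0.0515). The mitochondrial share of UMIs was 7.28 ± 1.08% in V5 and 8.10 ± 1.21% in V6, higher in 3 of 4 mice (exact sign-flip p 0.375), and its part in the immediate early values was not tested.

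**Figure D3:**
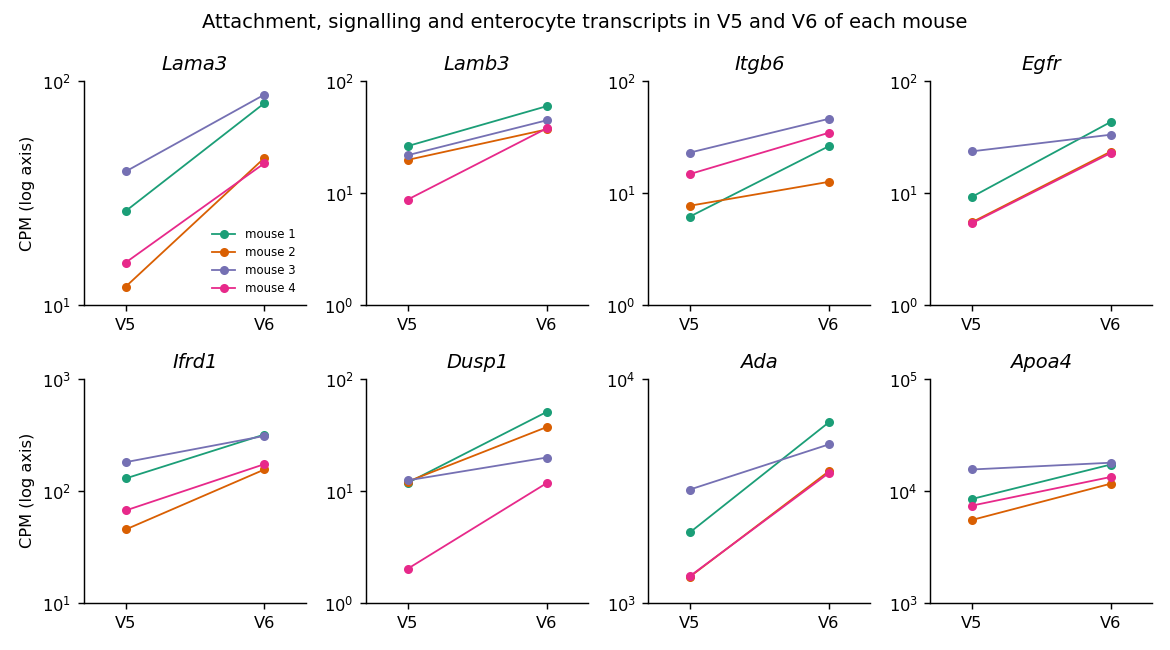
CPM of 2 laminin chains, Itgb6, Egfr, 2 immediate early genes, Ada and Apoa4 on log axes in V5 and V6, with 1 line per mouse (n = 4). All 32 lines rise, and mouse 3 starts highest in V5 for Lama3, Itgb6, Egfr, Ifrd1, Dusp1, Ada and Apoa4.

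Purine genes at the tip form a chain in which CD73 makes adenosine from AMP and adenosine deaminase turns it into inosine. Of the 17 genes of this list tested besides Nt5e, the gene of the sorted protein, 2 rose and none fell, with a median of 0.18. The share called higher over all genes tested was 1.47%. Ada was at 2064, 1309, 3205 and 1317 CPM in V5 and at 6383, 3862, 5091 and 3792 CPM in V6. Each V6 library was above each V5 library (log2 1.35, SE 0.27, adjusted p 0.0124), but the call did not hold without mouse 2 (adjusted p 0.199) or without the mouse block (0.197). The other was Nudt4, a Nudix hydrolase known chiefly for inositol pyrophosphates (log2 0.57, adjusted p 0.0224), which lost its call without mouse 1, 2 or 4 (0.279, 0.187 and 0.0638) and without the block. Slc28a2, a nucleoside transporter, was at 412 ± 244 and 898 ± 258 CPM and missed the threshold (log2 1.27, SE 0.33, adjusted p 0.073).

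Lipid absorption genes differed by little, mostly toward V6. Of 29 tested, 25 had a log2 difference above 0, 2 rose and none fell, with a median of 0.13, and 6 had an unadjusted p under 0.05 toward V6. Over all genes tested, 51.7% were above 0, 1.47% were called higher and 7.18% had an unadjusted p under 0.05 toward V6. The lipid list summed to 78395 ± 18627 CPM in V5 and 91993 ± 15769.9 in V6. Apoa4, a chylomicron apolipoprotein and one of the most abundant transcripts, on chromosome 9 (46240696 to 46243459), was at 8460, 5498, 15504 and 7383 CPM in V5 and at 17167, 11584, 17817 and 13295 CPM in V6. Mouse 3 was already high in V5 and gained least (log2 0.81, SE 0.17, adjusted p 0.0082). Acsl3, which activates long-chain fatty acids, went from 16.7 ± 11.3 to 38.7 ± 17.7 CPM (log2 1.19, adjusted p 0.0102). Apoa1, the neighbour of Apoa4, was not called (log2 0.20, adjusted p 0.735), nor were Apob (log2 0.85, adjusted p 0.104) and the cholesterol transporter Npc1l1 (log2 0.54, adjusted p 0.0645). Without mouse 2 or mouse 4 Apoa4 was not called (adjusted p 0.366 and 0.0755), nor was Acsl3 without mouse 1 or mouse 4 (0.204 and 0.0992), and neither was without the mouse block.

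For carbohydrate and amino acid absorption no gene passed the test at this step in edgeR. Of 17 brush-border enzymes none was called at an adjusted p and 0 had an unadjusted p under 0.05, with log2 differences from -0.12 to 0.30 and a median of 0.07. Lactase (Lct) was at 391 ± 129.7 and 418 ± 27.3 CPM, and sucrase-isomaltase (Sis) at 580.2 ± 125 and 644 ± 40.4. Of 16 genes of sugar transport and fructose metabolism none was called either, with a median of -0.07; the glucose transporter Slc5a1 had 1528 ± 137 and 1526 ± 308 CPM. The 15 amino acid and peptide transporters had a median of -0.02. Fabp1, a fatty acid binding protein, was at 8156 ± 661 and 9090.5 ± 1991 CPM (log2 0.15, adjusted p 0.807).

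In several further lists 1 or 2 members rose. Over all genes tested 1.47% were called higher, so such counts say nothing of the lists themselves. In the cell death list of 26 tested genes these were Mcl1, which holds off apoptosis (log2 0.50, adjusted p 0.0388), and Bok, a BCL2 family member that promotes it (log2 0.98, adjusted p 0.0158), and the list median was 0.09. Eps8l3, related to an actin-capping protein of microvilli, rose among 21 microvillus genes (log2 0.55, adjusted p 0.0158). Duox2, an oxidase that releases hydrogen peroxide at the surface, rose among 21 barrier genes beside Reg4 (log2 0.82, adjusted p 0.0139). Lgals3, a galectin, went from 1618 ± 494 to 2514 ± 878 CPM (log2 0.65, adjusted p 0.0259). Gpx3, the secreted glutathione peroxidase, went from 16.3 ± 7.63 to 77.2 ± 37.4 CPM (log2 2.19, adjusted p 3.04e-07). Cox6b2 (log2 0.92) was the 1 called of 77 nuclear-encoded oxidative phosphorylation genes, whose median was -0.07. Of these, only Gpx3 kept its call without the mouse block and with each mouse left out. Mcl1 and Lgals3 lost theirs with any 1 mouse left out (adjusted p 0.104 to 0.203 and 0.0807 to 0.152). Bok and Cox6b2 lost theirs without mouse 1, 2 or 4 (0.115 to 0.32), Eps8l3 without mouse 1 or 4 (0.175 and 0.196) and Duox2 without mouse 2 or 4 (0.0624 and 0.36).

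Of the genes named by size alone, 2 stood in no list. Myl7, a myosin light chain best known from the heart atria, was at 26.8, 30.9, 23.6 and 35.1 CPM in V5 and at 120.4, 108, 59.4 and 77.5 CPM in V6. It kept its call in each of the 15 alternatives (log2 1.65, SE 0.18, adjusted p 8.18e-08). Tm4sf4, a membrane protein of the tetraspanin-like L6 family, went from 157 ± 57.8 to 443 ± 199 CPM (log2 1.43, adjusted p 0.0374) and lost its call when any 1 mouse was left out (0.0771 to 0.239). Further called genes, named after their values were seen, were the membrane mucin Muc3 (298 ± 119 to 594 ± 67.5 CPM, log2 1.02, adjusted p 0.00205), Sfn, the epithelial 14-3-3 protein (318 ± 131 to 586 ± 108 CPM, log2 0.91, adjusted p 0.00133), and the receptor gene Gprc5a (log2 1.25, adjusted p 1.55e-05). Anxa5, which binds phosphatidylserine, had a log2 difference of 1.82 (adjusted p 1.68e-05), and S100a11 and Plek2 had 0.92 and 0.89. Clca4a had 1.17 (adjusted p 0.00133), and close copies of this gene make its separate value uncertain. Of these 7 genes only Anxa5 was called without the mouse block. Muc3 and Clca4a lost their calls without mouse 2 (0.0903 and 0.137), Plek2 without mouse 1 (0.0855) and S100a11 without mouse 1 or 4 (0.172 and 0.196).

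The 3 genes called lower had small or low values. Stard10, a lipid transfer protein on chromosome 7 (101317086 to 101346626), was at 136, 179.8, 127 and 131 CPM in V5 and at 104, 105, 114 and 72.3 CPM in V6, with no overlap (log2 -0.53, SE 0.13, adjusted p 0.0271). Dus1l, which modifies transfer RNA, went from 34.1 ± 6.04 to 20.6 ± 2.27 CPM (log2 -0.70, adjusted p 0.0434), and Zmynd19 from 7.70 ± 2.43 to 2.80 ± 2.24 CPM (log2 -1.56, adjusted p 0.0444). None of the 3 was called without the mouse block (adjusted p 0.262 to 1.0), or without mouse 1, 2 or 4 (0.092 to 0.321); Stard10 alone of them kept its call without mouse 3.

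Cell division, ribosomal protein and Paneth cell lists leaned toward V5 with no member called in edgeR. Over all genes tested, 48.3% were below 0 and 3.18% were lower at an unadjusted p under 0.05. Of 22 cell division genes, 21 were below 0 with a median of -0.50, and 10 had an unadjusted p under 0.05. Their sum was lower in V6 in 4 of 4 mice, 662 ± 218 against 491 ± 77.1 CPM (exact sign-flip p 0.125). The gap was widest in mouse 2, at 961 CPM in V5 and 596 in V6. Of 77 cytosolic ribosomal protein genes, 74 were below 0 with a median of -0.20, and 11 had an unadjusted p under 0.05. The ribosomal sum was 36115 ± 9061 CPM in V5 and 30358 ± 4366 in V6 (exact sign-flip p 0.25). It fell most in mouse 2, from 45306 to 26799 CPM, and less in mice 1 and 4. In mouse 3 it was higher in V6, at 23938 and 26697 CPM. The 10 Paneth markers had a median of -0.77, which moved with the V5 libraries of mice 1 and 2 described above. The plot of list members sets these medians beside the endocrine ones.

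**Figure D4:**
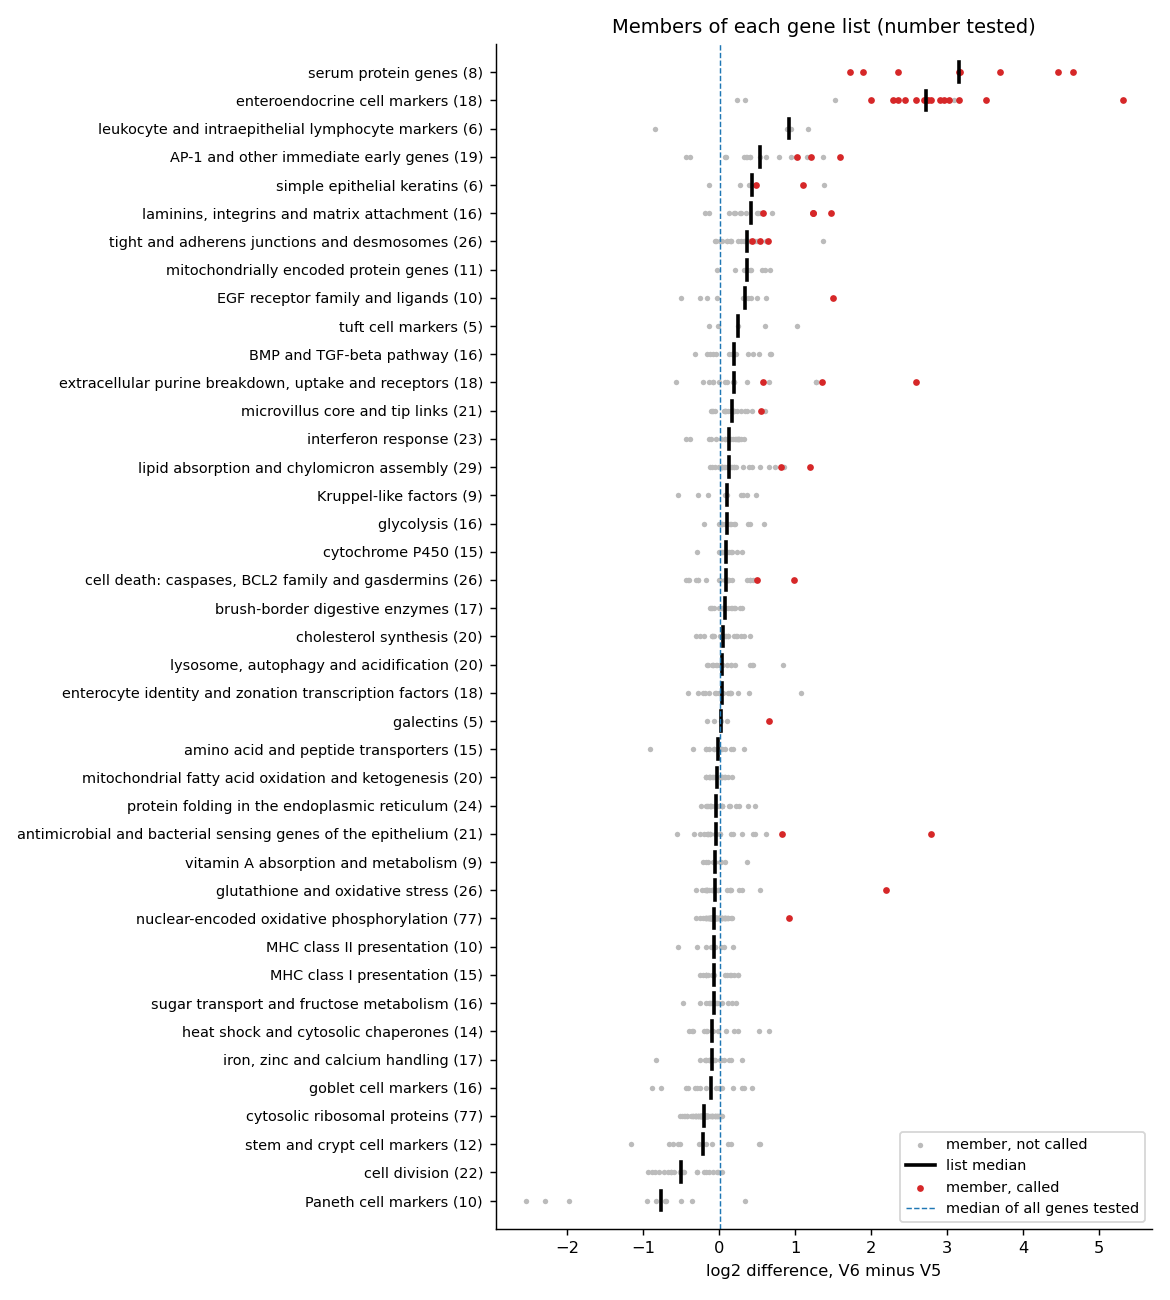
Log2 difference, V6 minus V5, of each tested member of the 41 lists with at least 5 tested members, ordered by the list median (black bar); red points passed an adjusted p of 0.05 and the dashed line is the median of all genes tested. The serum protein and enteroendocrine lists stand at medians of 3.16 and 2.72, and the Paneth, cell division and stem cell lists lie lowest.

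To place the last step beside the one below it, the same fit gave V5 minus V4 and the difference of the steps. V5 minus V4 had 0 called genes (0.0%) in edgeR, with 512 at an unadjusted p under 0.05, and 0 in DESeq2 and limma-voom. The difference of the steps, however, also had 0 called genes (0.0%) in edgeR, with 758 at an unadjusted p under 0.05 and a lowest adjusted p of 0.0752, that of Nt5e, and DESeq2 had 0. Limma-voom called 2, Nt5e and Gm10800. The 137 calls at the last step against 0 at the one before therefore do not show, gene by gene, that the steps differ. The steps share the V5 libraries, and side by side Nts had log2 differences of 2.39 (SE 0.98) from V4 to V5 and 5.31 (SE 0.71) from V5 to V6, and Chga of 0.52 (SE 0.35) and 2.29 (SE 0.33). Pyy was at 3.97 CPM in V4, so its log2 difference was 3.01 (SE 1.0) at the earlier step and 3.51 at the last. Lama3 had 0.14 (SE 0.24) and 1.47 (SE 0.20), Egfr -0.20 (SE 0.33) and 1.5 (SE 0.28), and Apoa4 -0.16 (SE 0.17) and 0.81 (SE 0.17).

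**Figure D5:**
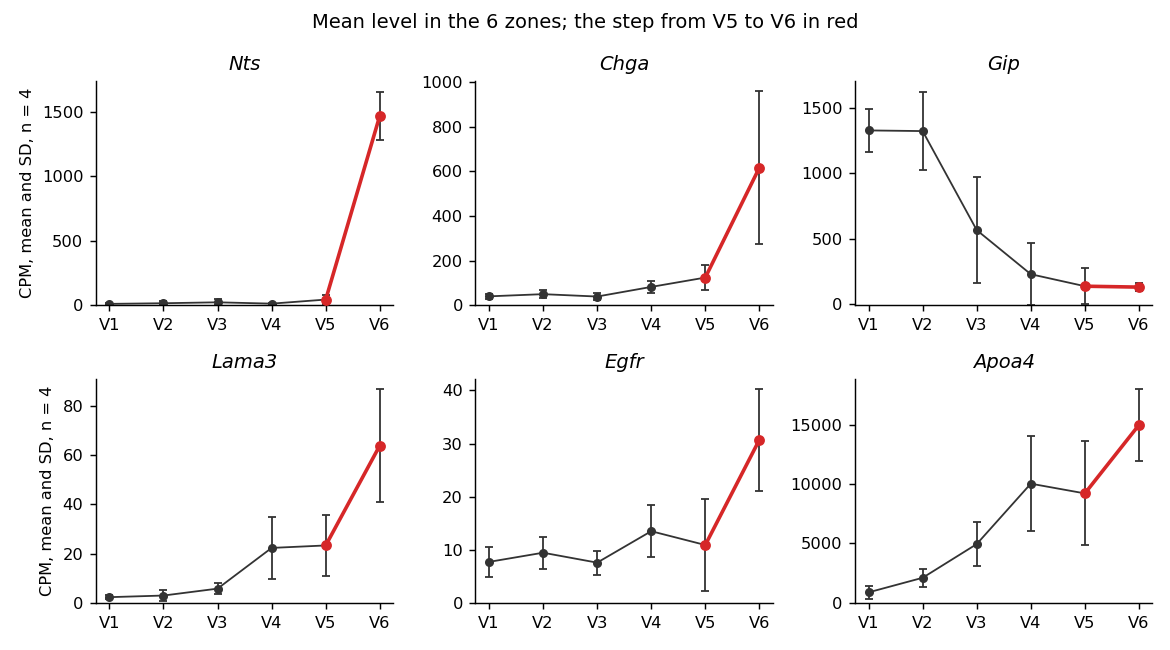
Mean CPM with SD (n = 4 mice) of 6 genes in the 6 zones from V1 (bottom) to V6 (tip), on linear axes, with V5 to V6 in red. Nts goes from 38.9 CPM in V5 to 1474 in V6, Gip stays near 131 to 138 at this step after its decline from 1329 in V1, and Lama3 is near 23 CPM in V4 and V5 before 63.8 in V6.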

How the data were processed

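Raw UMI counts for 24 libraries, deposited by the authors as 1 table, were the starting point. The submitters' processing notes name bcl2fastq 2.15.0.4 and GRCm38, and the deposited counts carry the name zUMIs. Which aligner, annotation and filters were used is not given in the sources used here. Of 17811 gene identifiers, 131 had no count. Coordinates came from GENCODE M21, which matched 17741 identifiers, and promoters from RefSeq.

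The analysis used edgeR 4.0.16 in R 4.3.3: filterByExpr by zone (minimum count 10, minimum total 15), TMM scaling, and robust quasi-likelihood fits with a mean per zone and mouse as a block over all 24 libraries (15 residual degrees of freedom). A gene was called at a Benjamini-Hochberg adjusted p under 0.05. DESeq2 1.42.0, limma-voom (limma 3.58.1), other scalings, filters, thinning to 806541 UMIs and leaving out each mouse were alternatives. Same-numbered libraries come from the same mouse, per the labels. The 60 same-mouse pairs had correlations of at least 0.184 in their deviations from zone means, and 24 of 24 libraries correlated best with their own mouse. Subtracting zone means by itself makes different mice of a zone less alike. The deposited sheet holds 4 indexes for 24 libraries, and V5 and V6 of a mouse share one in 4 of 4 mice. Whether the likeness came from the mouse or the index was not tested. No 2 libraries of V5 or of V6 were copies (chi-square per degree of freedom 7.45 to 27.3). Library values were compared by exact two-sided sign-flip tests over mice.

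On simulated counts of 9220 genes, the V6 minus V5 test recovered 6.06% of 99 changes of 0.5 and 60.2% of 98 changes of 1 (log2), with 6 false among 71 calls. The comparison and the 42 gene lists were chosen with earlier results of these data known. A member of the attachment list is not reported here and was left out of that list's values. Genes were named by size (the 12 largest rises and the 12 largest falls past the threshold, with 1 direction in 4 mice and at least 50 CPM on average over V5 and V6) and by list (up to 4 members lowest in adjusted p, plus the most abundant); others are said to be chosen later. By size, the falls gave only Stard10, and no gene met the rule for the difference of the steps.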

Additional observations from a re-analysis of the deposited data

Results flagged for a closer look

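Of 176 groups of 4 libraries checked for a library standing apart from the other 3, 11 had one, where chance gives about 1 in 20 (8.8 groups). In V5, Sst stood at 52.4 CPM in mouse 3 against at most 1.54 in the others. Scg5 stood at 4.63 CPM in V5 of mouse 1 against 1.10 to 1.35, Rbp4 at 8.75 CPM against 1.35 to 2.36, and Resp18 at 16 CPM against 3.53 to 5.51, all in that library. Cartpt was at 0 CPM in V5 of mouse 3 (0.0 against 2.02 to 2.21), and Dusp1 at 2.02 CPM in V5 of mouse 4 against 11.8 to 12.4. In V6 of mouse 2, Sst stood at 52.1 CPM against 1.41 to 9.77, and Fabp1 at 12042 CPM against 7831 to 8522. Mouse 1 stood apart in V6 for Serpina1c (65.1 CPM against 15.6 to 18.5), Krt20 (5716 CPM against 3702 to 4019) and Plek2 (157 CPM against 69.7 to 81.3).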

How the results depend on the processing

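Of the named called genes, 60 were followed through the alternatives. None of the 60 changed direction in any, and 6 kept their call in all that tested them. Ttr, Scg5, Scgn, Serpina1a and Serpina1b were not among the 60. Without the replicate block, 25 genes were higher and 0 lower, all 25 among the 137, with 8 enteroendocrine, 5 serum and 0 attachment genes; on the V5 and V6 libraries alone the paired fit gave 145 and 2, and no block gave 10 and 0, with 4, 2 and 0. Leaving out mice moved the higher count to between 55 (mouse 1) and 128 (mouse 3), with 83 without mouse 2 and 65 without mouse 4; the lower count was between 0 and 4, enteroendocrine genes between 11 and 14, serum genes between 6 and 8, attachment genes between 2 and 3, and the difference of the steps between 0 and 1. No filter gave 263 higher, 55 lower and 101 for the difference of the steps; a mean of at least 50 CPM gave 68 higher, with 9, 1 and 1 list genes. Thinning gave 54, with 4 serum and 2 attachment genes. Total UMI scaling gave 92 higher and 5 lower and moved the median of all genes to -0.069; limma-voom gave 7 lower and DESeq2 1. The difference of the steps had 2 calls in limma-voom and 2 on the V4 to V6 libraries alone with the block. The cause was not tested, beyond fewer genes or samples where these are part of the alternative. At this depth and 4 mice, changes under a log2 of about 1 are often missed (60.2% recovered at 1 on simulated counts).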
